A study of Mus musculus with 2 samples.

Results

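The Bcl2 family apoptosis genes described here are 10 genes, Pmaip1, Bbc3, Bcl2l11, Bid, Bad, Bax, Bak1, Bcl2, Bcl2l1 and Mcl1, taken by symbol from the 15239 genes of the deposited expression table. All 10 were listed. The table has 1 column for each of 2 RNA sequencing libraries, labelled as normal mammary basal cells of the mouse. One library carried a scrambled short hairpin RNA (Scramble control) and the other a hairpin against Cdk14 (Cdk14-sh), a kinase that works with cyclin Y. The labels give no age, strain, delivery method or number of animals, and the series' design text and the extraction protocol name other material (the human line MDA-MB-231 and retinas). Each group held 1 library, so no test was possible and no p-value is given. The targeted gene was lower in the library labelled Cdk14-sh, with Cdk14 at 0.713 FPKM against 2.06 FPKM, 2.90-fold lower (2.20 to 3.89 for counting error). As log2(FPKM + 1) the ratio was -0.84, short of a 2-fold difference. Among genes with a mean of 1 to 5 FPKM, 21.2% were as low or lower. FPKM is the number of fragments scaled to gene length and to the library's total, so levels can be compared between genes and, approximately, between libraries. Summed over all listed genes, FPKM came to 362738 in Scramble control and 379824 in Cdk14-sh.

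The Bcl2 family decides whether the outer mitochondrial membrane is opened, the step that commits a cell to the intrinsic form of apoptosis. The effectors Bax and Bak1 form the pores, the survival proteins Bcl2, Bcl2l1 (Bcl-xL) and Mcl1 hold them in check, and the BH3-only proteins sense stress and either occupy the survival proteins or activate the effectors. In the mammary gland the family takes part in the clearing of ductal lumens and in involution after lactation.

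What joins the 3 roles is a short helix, the BH3 domain, which fits into a groove on the survival proteins. Its core is a leucine followed, after 3 residues, by a small residue and an aspartate. Each of the 9 members searched had a principal coding sequence in which this core occurred exactly 1 time. That was also the rule for choosing the sequence shown. The 42 coding bases around it are shown because they are the feature that BH3-only, effector and survival members share. Sequences are from GENCODE M21 transcripts (GRCm38), 5′ to 3′, with the codons of the leucine and of the small residue and aspartate in capitals.
Bbc3: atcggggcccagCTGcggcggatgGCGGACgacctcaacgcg
Bcl2l11: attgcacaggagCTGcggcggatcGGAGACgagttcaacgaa
Bid: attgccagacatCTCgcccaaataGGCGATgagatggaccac
Bad: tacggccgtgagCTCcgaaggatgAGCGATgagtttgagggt
Bax: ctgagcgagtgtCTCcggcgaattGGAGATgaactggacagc
Bak1: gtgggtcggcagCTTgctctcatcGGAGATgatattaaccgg
Bcl2: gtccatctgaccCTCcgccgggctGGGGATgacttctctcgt
Bcl2l1: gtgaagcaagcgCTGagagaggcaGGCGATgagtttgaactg
Mcl1: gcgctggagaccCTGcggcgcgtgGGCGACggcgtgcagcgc
The small residue was glycine in 7 of these, alanine in Bbc3 and serine in Bad. The closest pair was Bbc3 and Bcl2l11, which share 28 of 42 bases (66.7%), whereas Bid shared 15 of 42 (35.7%) with Bcl2 and with Mcl1. Of 5 complete coding isoforms annotated for Bcl2l11, 1 lacks the core, and of 4 for Bak1, 1 lacks it. The deposited values are per gene and do not separate isoforms, including the long and short forms of Bcl2l1.

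Across the family, 2 of 10 members passed a 2-fold limit upward in the Cdk14-sh library and 0 passed it downward, counted on the log2(FPKM + 1) scale. The 2 were BH3-only genes, Pmaip1 (Noxa) and Bbc3 (Puma), both known as transcriptional targets of p53. Over all listed genes, 13.1% were 2-fold higher and 11.7% were 2-fold lower, and among the 12830 genes averaging 1 FPKM or more the shares were 14.2% and 13.5%. The median log2 ratio was 0.15 over the 10 members and 0.03 over all listed genes. The members were chosen with the high ratio of Pmaip1 known, so its place in the count is a description. With the limit at 1.5-fold, 4 members were higher, adding Bax and Bcl2, and 1 was lower, Bcl2l11, with Bcl2l1 just inside the limit at a log2 ratio of -0.58. At that limit 24.2% of all listed genes were higher and 22% were lower.

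**Figure D1:**
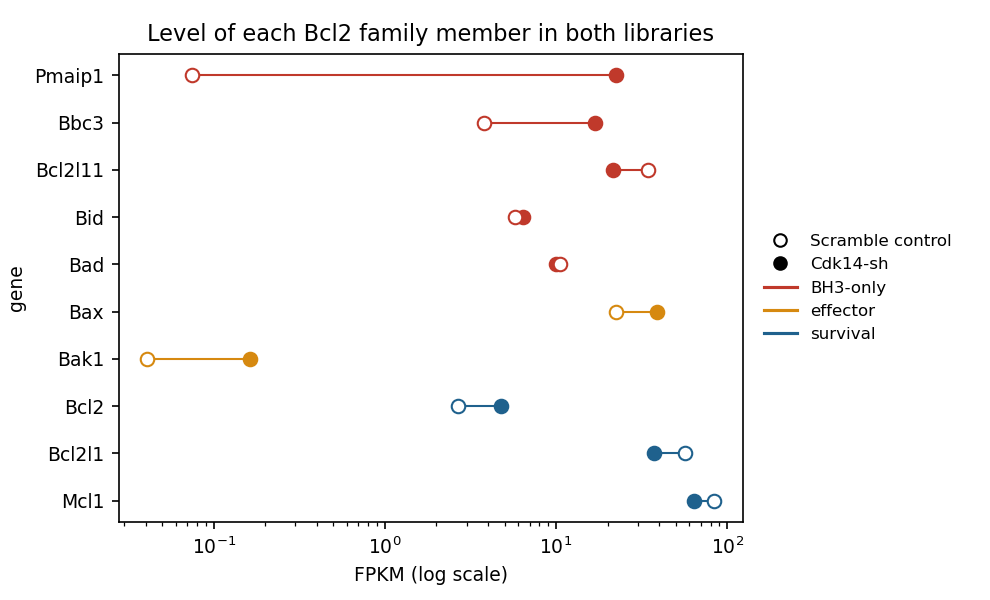
FPKM of each member in the Scramble control library (open circles) and the Cdk14-sh library (filled circles), on a log axis, coloured by role; each circle is 1 library. Pmaip1 spans from 0.0742 to 22.5 FPKM, while Bid and Bad nearly coincide and the survival genes Bcl2l1 and Mcl1 sit to the right in both libraries.

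The BH3-only genes went in 3 ways. Pmaip1, whose product mainly binds Mcl1, was at 0.0742 FPKM in Scramble control and 22.5 FPKM in Cdk14-sh. By annotated length these values correspond to about 2.07 and 626 reads, so the control level rests on about 1 fragment. The ratio was 303, with a 95% interval of 55.8 to 12414 for counting error alone. The gene moved from the 9th place among the 10 members to the 4th, and from a level above 4.78% of all listed genes to one above 80.3%. On the log2(FPKM + 1) scale the ratio was 4.45.

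Bbc3, whose product can bind every survival protein, was at 3.79 FPKM in Scramble control and 16.9 FPKM in Cdk14-sh, from 82 and 366 reads. It was 4.47-fold higher (3.17 to 6.43), and unlike Pmaip1 it was well covered in both libraries. In its abundance class of 5 to 20 FPKM, 3.77% of genes had a log2 ratio as high as its 1.90. Bbc3 (ENSMUSG00000002083) lies on the plus strand of chromosome 7 from 16308393 to 16318205 (GRCm38), and no other gene shares its exonic bases.

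Bcl2l11 (Bim), the BH3-only activator best known from growth factor withdrawal and loss of matrix contact, went the other way. It was the most abundant BH3-only transcript in Scramble control, at 34.4 FPKM (2814 reads), and stood at 21.6 FPKM (1761 reads) in Cdk14-sh. The ratio was 0.626 (0.575 to 0.682), a difference well beyond counting error and inside the 2-fold limit, and 15.7% of genes with a mean of 20 to 100 FPKM were as low or lower. The remaining BH3-only genes were nearly level. Bid, which caspase 8 cleaves to link death receptors to mitochondria, stood at 5.74 FPKM in Scramble control and 6.41 FPKM in Cdk14-sh, a ratio of 1.12 (0.849 to 1.47). Bad, which is held inactive by growth factor kinases, stood at 10.6 FPKM in Scramble control and 9.99 FPKM in Cdk14-sh, a ratio of 0.945 (0.736 to 1.21). Both intervals include 1. Exons of Bcl2l13 on the other strand cover 17.7% of the exonic bases of Bid, and those of Gpr137 cover 20.5% of Bad. The sources used here do not give whether strand was used in counting.

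The effectors were far apart in level. Bax was at 22.5 FPKM in Scramble control (361 reads) and 39.1 FPKM in Cdk14-sh (627 reads), 1.74-fold higher (1.44 to 2.10). Its log2 ratio of 0.77 lies below 0.97, the 90th percentile of genes with a mean of 20 to 100 FPKM. Bax (ENSMUSG00000003873) is found on chromosome 7 at 45461697 to 45466898 (minus strand), and 12.2% of its exonic bases are shared with the gene model Gm45808 on the same strand. Bak1, the other pore former, was at 0.0408 FPKM and 0.163 FPKM, from 1 read and 4 reads. Both values lie under the floor of 3 fragments used here, so no ratio is given. Bak1 was the lowest member in both libraries, and 25.5% of its exonic bases are shared with Ggnbp1 on the opposite strand. Between Bax and Bak1, RNA was therefore almost all Bax in both libraries at this depth. Bok, a further family member outside the set described here, was at 12.5 FPKM in Scramble control and 15.5 FPKM in Cdk14-sh. It is named after its values were seen.

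The survival genes were also split. Mcl1, a short-lived protein that needs constant synthesis, was the highest member in both libraries, at 83.9 FPKM (2922 reads) in Scramble control and 63.8 FPKM (2218 reads) in Cdk14-sh. It was 1.32-fold lower (1.22 to 1.42). Bcl2l1 was at 56.6 FPKM (2642 reads) in Scramble control and 37.5 FPKM (1750 reads) in Cdk14-sh, 1.51-fold lower (1.38 to 1.64). Bcl2, the founding member, was much lower than both and was higher in Cdk14-sh, at 2.67 FPKM in Scramble control and 4.76 FPKM in Cdk14-sh (249 and 444 reads), 1.78-fold (1.43 to 2.25). In its class of 1 to 5 FPKM, 27.3% of genes were as high or higher. The survival gene that was higher in Cdk14-sh was thus the rarest of the 3.

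**Figure D2:**
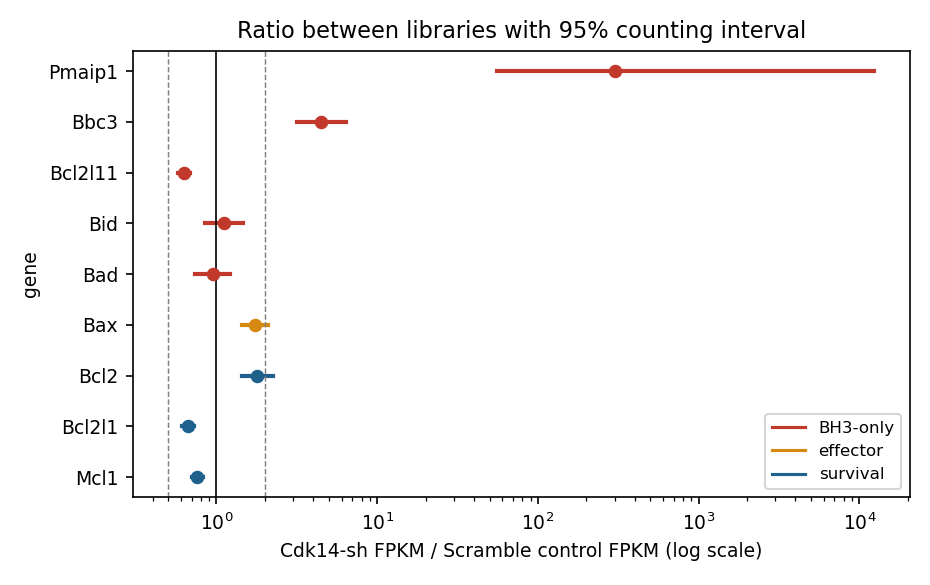
Ratio of Cdk14-sh FPKM to Scramble control FPKM for the 9 members with a ratio, on a log axis; points are ratios, lines are exact 95% intervals for counting error, the solid line marks equality and dashed lines mark 2-fold. Pmaip1 and Bbc3 lie beyond the 2-fold line with their whole intervals, and the intervals of Bid and Bad cross equality.

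For 7 of the 9 members with a ratio the counting interval left out 1, with 4 higher and 3 lower in Cdk14-sh. The same held for 69.1% of the 12793 genes that averaged 1 FPKM or more and had an annotated length, 35.9% higher and 33.2% lower. A difference beyond counting error was thus the common case in these libraries, and the spread between cultures or animals was not measured. The SD of log2 ratios was 1.06 over genes with a mean of 5 to 20 FPKM and 0.84 over those with 20 to 100 FPKM. Bcl2l11, Bax, Bcl2l1 and Mcl1 all lie within 1 such SD of 0.

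**Figure D3:**
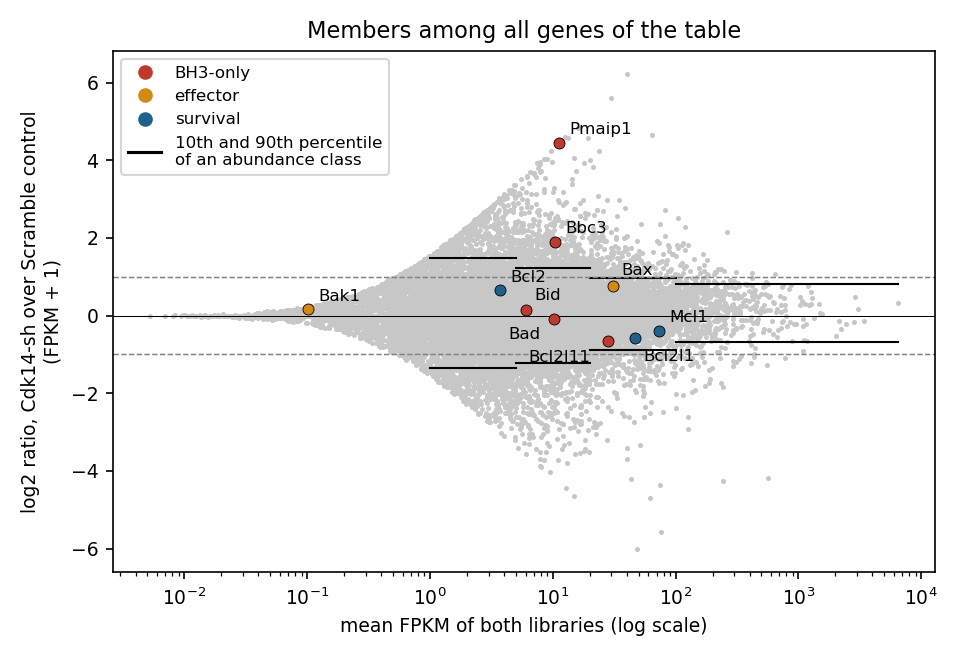
Log2 ratio of (FPKM + 1) against mean FPKM (log axis) for all listed genes (grey) and the 10 members (coloured by role); black lines are the 10th and 90th percentiles of 4 abundance classes and dashed lines mark 2-fold. Bbc3 at 1.90 lies above the 90th percentile of its class, 1.22, Pmaip1 is drawn at 4.45 in the same class through its Cdk14-sh level alone, and the other members averaging 1 FPKM or more lie between the percentiles of theirs.

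The order of levels within a library changed around a fixed top. In Scramble control the order was Mcl1, Bcl2l1, Bcl2l11, Bax, Bad, Bid, Bbc3, Bcl2, Pmaip1 and Bak1. Counting intervals (exact Poisson) overlapped between the neighbours Bid and Bbc3, Bbc3 and Bcl2, and Pmaip1 and Bak1. In Cdk14-sh it was Mcl1, Bax, Bcl2l1, Pmaip1, Bcl2l11, Bbc3, Bad, Bid, Bcl2 and Bak1. There Bax (34.9 to 43.7 FPKM) could not be separated from Bcl2l1 (35.1 to 40.1 FPKM), nor Pmaip1 (20.1 to 25.2 FPKM) from Bcl2l11 (20.1 to 23.0 FPKM), and the intervals of Bid and Bcl2 also met.

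Summed over all 10 members, the level was nearly equal, 220.2 FPKM in Scramble control and 223 FPKM in Cdk14-sh, but it was divided differently among the roles. From Scramble control to Cdk14-sh, the BH3-only sum went from 54.6 to 77.4 FPKM, the effector sum from 22.5 to 39.3 FPKM, and the survival sum from 143 to 106 FPKM. BH3-only RNA came to 0.381 of survival RNA in Scramble control and 0.730 in Cdk14-sh, a 1.91-fold change of the ratio (log2 0.94, counting SE 0.071). Without Pmaip1 the BH3-only sum was 54.5 FPKM in Scramble control and 54.9 FPKM in Cdk14-sh, and the ratio to survival RNA changed 1.36-fold, from 0.381 to 0.518 (log2 0.44, counting SE 0.075). Within the group, the higher Bbc3 was thus matched by the lower Bcl2l11.

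Effector (Bax and Bak1) to survival RNA changed from 0.157 to 0.370, or 2.35-fold (log2 1.23, counting SE 0.14). The SEs of these ratios between members cover counting error only, and no background of ratios between other genes was computed. The log2 ratios of single genes with a mean of 20 to 100 FPKM had an SD of 0.84. That is an unlike measure. A change of a ratio between members draws on both of its parts, so its spread can be wider. The ratio of Bax to Bcl2l1 went from 0.398 to 1.04, a 2.62-fold change. Bax to Bcl2, a ratio often quoted in studies of apoptosis, was 8.42 in Scramble control and 8.21 in Cdk14-sh, with a counting SE of 0.21 on a log2 change of -0.04, because both genes were higher by nearly the same factor. With a pseudocount of 1 FPKM the log2 change was 0.12, so this pair has no direction. Within the survival group, Bcl2l1 stood at 0.674 of Mcl1 in Scramble control and 0.588 in Cdk14-sh. These are ratios of RNA, and the proteins, several of which are regulated by degradation or phosphorylation, were not measured here.

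**Figure D4:**
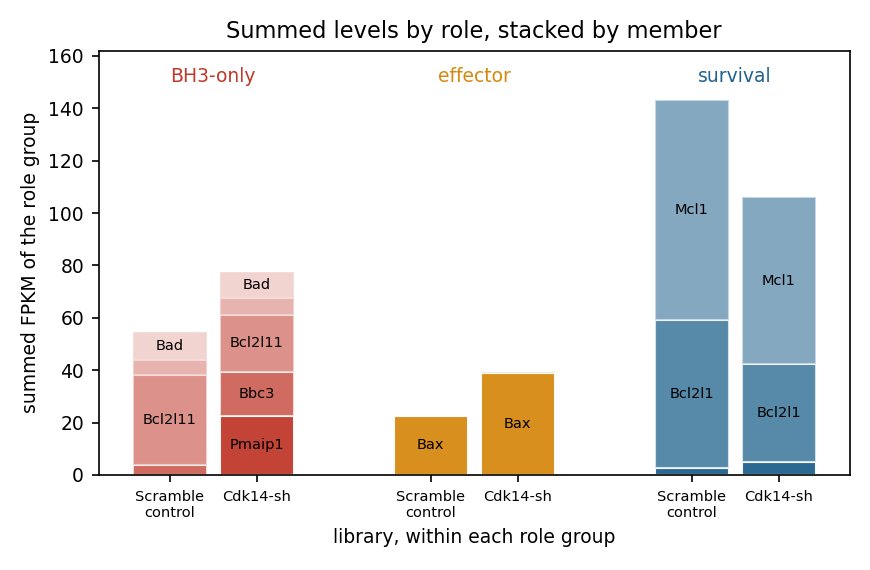
Summed FPKM of the BH3-only, effector and survival members in each library, stacked by member; names are written in segments above 8 FPKM, and each bar is 1 library. The BH3-only and effector bars are taller in Cdk14-sh (77.4 and 39.3 FPKM) and the survival bar is shorter (106 FPKM, with 143 in Scramble control).

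RefSeq promoter windows (GRCm38.p6, 250 bases before to 50 after an annotated start) were matched for 9 of the 10 members, 15 windows in all. Each was searched on both strands for motifs of factors known to act on this family. A FOXO motif (GTAAACA or TGTTTAC) was found in 2 windows, 1 of Bcl2l11 and 1 of Bbc3, against 3.65% of all 32851 windows. Bcl2l11 and Bbc3 are known FOXO targets, and they differed in opposite directions here. The p53 decamer was found in 1 window, that of Bax, against 8.36% of all windows. It was not found in these windows of Bbc3, which says only that those letters are not there. The cAMP response element TGACGTCA and the AP-1 motif TGACTCA (or TGAGTCA) were in 0 of the 15, against 1.79% and 5.20% of all windows. The GC box GGGCGG (or CCGCCC) was in 10 of the 15, over 7 members, against 35.7% of all windows, and the E-box CACGTG was in 2, 1 of Bbc3 and 1 of Bax, against 7.15%. The 250 bases before the window's start site are shown for the 3 windows with a FOXO or p53 match, in capitals, because they belong to the BH3-only genes that differed in opposite directions and to the effector. They lie at chr2:128125788-128126037 (plus strand, Bcl2l11), chr7:16310011-16310260 (plus strand, Bbc3, a start inside the gene that is 1 of 3 annotated) and chr7:45466899-45467148 (minus strand, Bax).
Bcl2l11: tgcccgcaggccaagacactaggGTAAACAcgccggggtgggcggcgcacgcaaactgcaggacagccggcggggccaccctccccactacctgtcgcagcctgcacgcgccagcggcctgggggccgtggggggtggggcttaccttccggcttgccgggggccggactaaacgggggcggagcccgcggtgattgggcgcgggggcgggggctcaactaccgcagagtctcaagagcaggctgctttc
Bbc3: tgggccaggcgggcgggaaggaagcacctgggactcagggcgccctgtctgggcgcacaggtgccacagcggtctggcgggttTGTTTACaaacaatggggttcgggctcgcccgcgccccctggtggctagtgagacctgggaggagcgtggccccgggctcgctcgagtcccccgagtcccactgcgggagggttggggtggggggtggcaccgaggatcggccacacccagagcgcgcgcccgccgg
Bax: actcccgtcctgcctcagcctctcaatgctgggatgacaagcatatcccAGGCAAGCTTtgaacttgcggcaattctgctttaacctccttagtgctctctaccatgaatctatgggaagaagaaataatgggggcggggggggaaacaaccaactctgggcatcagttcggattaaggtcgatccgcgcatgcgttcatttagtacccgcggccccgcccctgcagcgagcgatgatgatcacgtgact
The matches begin 227, 167 and 201 bases before the start site of their own window, which for Bbc3 is not the outermost start of the gene. A match is a string of letters and not a shown binding site.

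In the lists that follow, paired values give Cdk14-sh first and Scramble control after it, and highest and lowest refer to the log2(FPKM + 1) scale. Beside their counts, 14.2% of the 12830 genes averaging 1 FPKM or more were 2-fold higher and 13.5% were 2-fold lower. The transcripts of the factors themselves were compared in a list of 24 symbols of regulators of the members, of which 21 were measured. March5 and Marchf5 in this list are symbols of the same gene. Neither was found, but some deposited symbols are written as dates, so the absence of that gene is not shown. Past 2-fold, 2 of these were higher and 1 was lower in Cdk14-sh, with a median log2 ratio of 0.00. The highest were Trp63, the basal p53 relative that can act on the same promoters, 2.83-fold higher (2.51 to 3.20) at 23.9 FPKM, and Dynll2, a dynein light chain that holds BH3-only proteins at the cytoskeleton, 2.46-fold higher (1.97 to 3.13). The value of Trp63 does not separate its isoforms, and its part in the differences of the members was not tested. The lowest were Mapk8, a stress kinase (Jnk1), 2.92-fold lower (2.51 to 3.40), and the stress factor Atf3, 1.91-fold lower (1.80 to 2.03) at 150 FPKM. Other members of the list are named after their values were seen. The cell cycle factor E2f1 was 2.06-fold lower (1.10 to 4.01) without a pseudocount, at 0.997 FPKM against 2.05, but its log2 ratio was -0.61. Trp53 itself was at 53.3 FPKM against 56.6, and Mdm2, its ubiquitin ligase and also its target, was 1.78-fold lower (1.64 to 1.92). Foxo3 was 1.52-fold higher (1.35 to 1.70) and Foxo1 was 1.49-fold lower (1.32 to 1.67). Atf4, the factor of the integrated stress response that can act on Pmaip1 and Bbc3, was 1.61-fold higher (1.52 to 1.72), while its partner Ddit3 was at 38.4 FPKM against 35.0. The Mcl1 ubiquitin ligases Huwe1 (8.49 FPKM against 8.48) and Fbxw7 (9.09 against 9.50) were within counting error of equality.

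Further members of the Bcl2 family were compared as a list of 17, of which 11 were in the table and 10 averaged 1 FPKM or more. Past 2-fold, 3 of the 10 were higher in Cdk14-sh and 2 were lower, with a median log2 ratio of 0.23. Over all measured genes the shares were 14.2% and 13.5%. With a pseudocount of 5 the counts were 0 higher and 1 lower. With a filter of 5 FPKM on the mean, 5 genes were left, 0 higher and 2 lower. Bnip3, a hypoxia-induced gene of mitophagy, was lowest, 5.05-fold lower (3.92 to 6.54) at 6.49 FPKM against 32.7. Bcl2l13, another mitochondrial relative, was at 4.68 FPKM against 0.589, 7.94-fold higher (5.35 to 12.4), with a log2 ratio of 1.84 beside 1.86 for Bcl2a1b. The A1 survival genes, which are known from blood cells, went in opposite directions, with Bcl2a1b at 5.23 FPKM against 0.721 (43.5 reads against 6) and Bcl2a1d at 2.96 against 7.28 (26 reads against 64). These are near-identical copies, and other exons on the same strand overlap 49.1% of the exonic bases of Bcl2a1b, so the split between them is uncertain. The BH3-only genes Bmf, Bik and Hrk were not listed in the table, which holds no gene at 0 in either library.

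Downstream of the membrane, 12 of 12 genes of mitochondrial release and the apoptosome were measured, with a median log2 ratio of 0.06 and, past 2-fold, 1 higher and 1 lower. Aifm1, the flavoprotein released from mitochondria, was 2.20-fold higher (1.78 to 2.72), and the channel Vdac1 was 1.97-fold higher (1.77 to 2.20) at 74.2 FPKM. The mitochondrial nuclease Endog was 3.01-fold lower (1.68 to 5.91), and Mtch2, the mitochondrial receptor of cleaved Bid, was 1.57-fold lower (1.39 to 1.76). Apaf1, the scaffold of the apoptosome, was at 1.44 FPKM in both libraries (132 reads each), and cytochrome c (Cycs) was at 63.6 FPKM against 58.5; both are named after their values were seen.

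The caspase list of 10 genes had 9 measured, with a median log2 ratio of 0.03. Casp9, the initiator that Apaf1 activates, was at 4.13 FPKM against 0.327, 12.6-fold higher (6.16 to 27.2). Its reads, about 219 against 17.3, are approximate, and it passed the filter on the mean through its Cdk14-sh level alone. At the low end were the inflammatory caspase Casp4, 2.12-fold lower (1.87 to 2.40), and Casp8, the initiator of the death receptor route, 1.66-fold lower (1.35 to 2.04).

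The inhibitor of apoptosis genes were lower in all 4 measured of 8, with a median log2 ratio of -0.91, against 0.02 over all measured genes. Past 2-fold 2 of the 4 were lower, against 13.5% of all measured genes, and that count was 0 with a pseudocount of 5 (median -0.58) and 1 of 3 with a filter of 5 FPKM on the mean. Birc3 (cIAP2) was 2.31-fold lower, at 16.1 FPKM against 37.1, Xiap, which blocks caspases directly, was 2.76-fold lower (2.14 to 3.61) at 1.71 FPKM, and Birc2 (cIAP1) was at 15.8 FPKM against 27.0. Birc6 was at 13.8 FPKM against 15.2. Birc2 and Birc3 are also known NF-kB response genes. With only 4 genes, this list is described by its members alone.

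Of 9 measured death receptor genes, 7 had a log2 ratio below 0, with a median of -0.33, though 0 passed 2-fold downward and 1 passed it upward. The median over all measured genes was 0.02, so a log2 ratio below 0 was common. That was the ligand Tnfsf10 (Trail), at 5.49 FPKM against 0.224, 24.5-fold higher (11.0 to 67.9), and Cflar, which restrains caspase 8, was at 9.54 FPKM against 6.35. The adaptor kinase Ripk1 was 1.97-fold lower (1.80 to 2.16) and Tradd 1.87-fold lower (1.19 to 2.99). Of 7 measured targets of execution 1 was higher and 1 was lower past 2-fold, with a median of -0.23. They were the subunits of the apoptotic nuclease, Dffa, the inhibitor, at 2.22 FPKM against 0.0555 (80 reads against 2, or 40.0-fold, 6.79 to 1620), and Dffb, the nuclease, at 2.51 FPKM against 9.94, 3.96-fold lower (2.73 to 5.82). The lamin Lmnb1 was 2.22-fold higher (1.55 to 3.24) without reaching the limit on the log2(FPKM + 1) scale, and Lmna was 1.34-fold lower (1.31 to 1.37). Pooled over the 7 lists, 10 of 72 measured genes (13.9%) were higher past 2-fold and 8 (11.1%) were lower, near the 14.2% and 13.5% of all measured genes. Among those counted as higher, Casp9, Tnfsf10, Dffa, Bcl2l13 and Bcl2a1b were under 1 FPKM in Scramble control. They passed the filter on the mean through their Cdk14-sh level alone, so their place in the counts is a description.

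**Figure D5:**
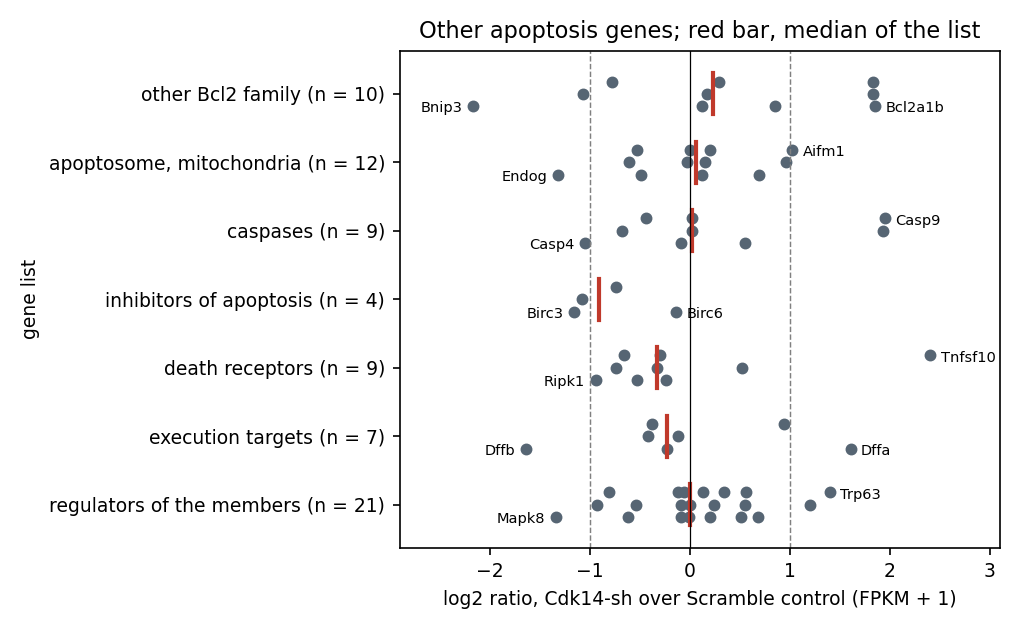
Log2 ratio of (FPKM + 1) for genes averaging 1 FPKM or more in 7 lists of other apoptosis genes; each point is a gene, the red bar is the list's median, dashed lines mark 2-fold, and the lowest and highest gene of each list is named. The inhibitors of apoptosis all lie below 0, from Birc3 at -1.16 to Birc6 at -0.14, and Casp9 at 1.95 and Tnfsf10 at 2.41 stand at the high end of theirs. Casp9 and Tnfsf10 were under 1 FPKM in Scramble control.

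Markers of other cell types also differed between the libraries. Beside the counts below, 13.1% of all listed genes were 2-fold higher and 11.7% were 2-fold lower. All 8 basal and myoepithelial markers were listed, with a summed level of 2983 FPKM in Scramble control and 2186 FPKM in Cdk14-sh. Most of that sum is Krt14 and Acta2, and the markers were divided, with 5 lower (2 of them past 2-fold, Cnn1 and Myh11) and 3 higher (Krt5 1.87-fold, Trp63 2.83-fold and Oxtr 1.45-fold). Of 8 endothelial markers, 7 were listed and 5 were at least 2-fold lower in Cdk14-sh, with a sum of 137 FPKM in Scramble control and 11.0 FPKM in Cdk14-sh. Of 8 immune markers, 5 were listed and 4 were at least 2-fold higher, with a sum of 79.6 FPKM in Scramble control and 354 in Cdk14-sh, while the pan-leukocyte gene Ptprc was at 0.482 FPKM in Scramble control and 0.247 FPKM in Cdk14-sh. From Scramble control to Cdk14-sh, the luminal sum went from 1209 to 648 FPKM over 7 of 8 markers listed. Of these 7, Krt8 and Krt18 were past 2-fold lower, and Krt19, Esr1 and Prlr were past 2-fold higher, the last pair from under 1 FPKM. The fibroblast sum went from 116 to 77.0 FPKM over 6 of 8, a fall that lies in Dcn (104 to 41.2 FPKM). Of the 6, Dcn and Thy1 were past 2-fold lower, Col1a2, Col3a1 and Fbln1 were past 2-fold higher, and the median log2 ratio was 1.02. The part of these markers in the differences of the Bcl2 family was not tested, and in bulk RNA a change in the number of cells of a type and a change of RNA per cell cannot be told apart.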

How the data were processed

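The authors deposited FPKM values, 1 column per library, and each column name fits only 1 sample title. Per the submitters' processing notes, Bowtie 0.12.2 and featureCounts of Subread 1.5.1 were used, with mm8 and GRCm38 named without a role. Strand use, treatment of multiply mapped reads and filters are not given in the sources used here. No gene is at 0 in either library.

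Values were analysed with Python 3.11.15 (pandas 2.3.3, scipy 1.17.1). A log2 ratio compares (Cdk14-sh + 1) with (Scramble control + 1), which understates differences of low genes; ratios and fold values have no pseudocount. Members were counted among all listed genes, and other lists among genes averaging 1 FPKM or more (called measured). Where rows share a symbol, the most abundant row was taken. Reads were recovered as FPKM times exonic length (GENCODE M21, 15191 genes) times a total of 10186924 reads for Scramble control and 10177185 for Cdk14-sh. These totals were not given by the authors. They were inferred from the steps between FPKM values, with the commonest low value taken as 2 reads (1 fragment). For 79.1% of these genes, and for 8 of the 10 members, both libraries gave multiples of 0.5 reads (tolerance 0.01). For the rest, Pmaip1 and Bad among them, reads are approximate. Recovered reads sum to 112% of each total, and the cause was not tested; the width of the intervals depends on these totals. Intervals are exact 95% binomial (Clopper-Pearson), with 2 reads as 1 fragment, and cover counting error only. The arithmetic was tested on simulated data that were built with 2 reads per fragment, so that assumption itself was not tested.

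The members and lists were chosen with earlier results of these data known. Named are all members, Cdk14 and the 2 highest and 2 lowest measured genes of each list of apoptosis genes. Other apoptosis genes that are named are marked. Markers of cell types were named with their values seen and not by this rule alone. Alternatives were other pseudocounts, 3 scalings of Cdk14-sh, other fold limits, other filters and 1 or 4 reads as 1 fragment. BH3 cores were searched in complete coding sequences. The coding sequence of Pmaip1 was not analysed here. Some genes of the caspase list are not reported here.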

Additional observations from a re-analysis of the deposited data

How the results depend on the processing

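No paired analysis was possible because each group holds 1 library, and no library could be left out. For the 10 members, the log2 ratio kept its sign under pseudocounts of 0.1 and 5 and under 3 scalings of the Cdk14-sh values (log2 factors of -0.05, -0.01 and -0.07). The count of 2 members 2-fold higher became 4 at a 1.5-fold limit and 1 at a 4-fold limit, and the count of 0 lower became 1 at 1.5-fold. The members' median log2 ratio of 0.15 was 0.48 with a pseudocount of 0.1 and 0.031 with a filter of 5 FPKM on the mean, where Bak1 and Bcl2 are left out. The size of the Pmaip1 ratio depends strongly on the pseudocount, with a log2 ratio of 7.02 at 0.1, 4.45 at 1 and 2.44 at 5. The log2 ratio of Bbc3 was 1.32 with a pseudocount of 5. The log2 change of Bax to Bcl2 turned from -0.04 to 0.12 with a pseudocount of 1.

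Over all genes, 1828 higher and 1735 lower became 677 and 612 with a pseudocount of 5, 3239 and 3141 at 1.5-fold, 419 and 345 at 4-fold, and 946 and 909 with the filter of 5 FPKM. Over the 7 other lists, 10 higher and 8 lower became 3 and 1 with a pseudocount of 5 and 1 and 1 at 4-fold; they were 15 and 18 at 1.5-fold and 4 and 7 with that filter. Stricter limits and filters pass fewer genes by construction. Depth limits Bak1 in both libraries and Pmaip1 in Scramble control.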
